A study of Mus musculus with 16 samples.

Results

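The Ly6 family with Ly6i was examined through 6 listed genes in lungs of mice that had received crystalline silica (CS), or buffered saline (PBS) as control, by way of the trachea. The genes are Ly6i, Ly6a, Ly6c1, Ly6c2, Ly6e and Ly6d. They were taken by symbol from the platform annotation, with the brightest probe set over the 16 arrays kept for each gene. Ly6i (probe set 10429560), Ly6e (10424676) and Ly6d (10429520) each had a probe set of their own. Ly6c1 and Ly6c2 were named only together, on 2 shared probe sets, and the brighter of these (10429568) stands for both. No probe set carried the symbol Ly6a alone or with others, so Ly6a was not analysed here. The 6 genes thus gave 4 measured features among the 19939 tested, which are 19938 genes and the shared Ly6c1/Ly6c2 probe set.

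The study crossed BLT1 genotype, silica and time in total lung RNA of C57BL/6 mice whose labels give an age of 10 to 12 weeks. BLT1, encoded by Ltb4r1, is the high-affinity receptor of the neutrophil attractant leukotriene B4. At day 60 the groups were BLT1-/-KRasLA1 lungs with CS, BLT1-/-KRasLA1 lungs with PBS, BLT1+/+KRasLA1 lungs with CS and BLT1+/+KRasLA1 lungs with PBS. At day 2 they were BLT1-/- lungs with CS, BLT1-/- lungs with PBS, BLT1+/+ lungs with CS and BLT1+/+ lungs with PBS. All day 60 mice carried KRasLA1, a latent tumor allele that becomes active in scattered cells through spontaneous recombination, and no day 2 mouse did, so day and this allele cannot be told apart. Each CS group holds 3 lungs, called biological replicates in the labels but given no animal numbers, and p-values therefore measure only the spread between these samples. Each PBS group is 1 array of RNA pooled from 3 mice and has no replicate.

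Ly6 proteins are small proteins with a three-finger fold, most of them held on the cell surface by a lipid anchor, and immunologists use several as markers of leukocyte classes. Ly6c1 and Ly6c2 encode the Ly-6C antigen, which is high on inflammatory monocytes and is also found on some T cells and on endothelium. Ly6a encodes Sca-1, a marker of blood stem cells. Ly6e is widely expressed and induced by interferon, and Ly6d marks B lineage cells and squamous epithelium. Ly6i is a close relative of the Ly-6A and Ly-6C proteins, and its function is little known. In the RefSeq annotation of GRCm38.p6 the 6 genes lie on chromosome 15 in the order Ly6d, Ly6e, Ly6i, Ly6a, Ly6c1, Ly6c2.

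The sequences just upstream of Ly6c1 and Ly6c2 are shown because the arrays could not separate these 2 genes, and they show how far the neighbouring DNA differs. Both are read 5′ to 3′ from the minus strand of GRCm38.p6 (RefSeq), from chr15:75048921-75049087 for Ly6c1 and chr15:75112067-75112221 for Ly6c2, outside the annotated genes. Capitals mark the motif TATAAA.
Ly6c1: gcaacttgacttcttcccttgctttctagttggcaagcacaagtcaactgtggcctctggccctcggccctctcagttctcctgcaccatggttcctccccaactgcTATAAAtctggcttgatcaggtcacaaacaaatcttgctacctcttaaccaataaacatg
Ly6c2: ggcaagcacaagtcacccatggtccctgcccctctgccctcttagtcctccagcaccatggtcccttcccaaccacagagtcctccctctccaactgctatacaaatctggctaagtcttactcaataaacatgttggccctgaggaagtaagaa

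The best local alignment of the stretches had 99 identical bases in 136 aligned columns, or 72.8%. In the 250 bases before each start, searched on both strands, TATAAA occurred 1 time in Ly6c1 and 0 times in Ly6c2, and 12.4% of 32851 promoter windows of the same length held it. The core of an interferon-stimulated response element, written as GAAANNGAA, occurred 0 times in either gene (7.13% of windows), and a gamma-activated site written as TTCNNNGAA also 0 times (7.02% of windows). RefSeq promoter windows were used for 2 of the 6 genes.

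Values are log2 expression levels, with array medians between 8.25 and 8.34. The 6 lung markers (Sftpc, Sftpa1, Sftpb, Scgb1a1, Ager and Cldn18) lay between 13.26 and 14.47 on every array, and their means over the arrays were at or above the 99.7th percentile of gene levels. Ltb4r1 lay between 7.22 and 7.63 and does not check the genotype labels, since no source used here says whether its probe set lies in the deleted stretch. Y-linked Eif2s3y set 3 arrays apart, at 9.04 to 10.09 against 4.27 to 4.74 on the other 13. They are BLT1+/+KRasLA1 CS replicate 2 and both day 60 PBS pools, so every day 60 silica difference rests on pools that are among these 3 arrays. X-linked Xist was at 6.61 in that CS lung, at 12.16 in the BLT1-/-KRasLA1 pool and at 12.32 in the BLT1+/+KRasLA1 pool. On the other arrays Xist lay between 12.75 and 13.06. By Eif2s3y and Xist, that CS lung reads as male, both day 60 pools as mixed and the other arrays as female. Sex and silica are thus partly confounded at day 60, and the part of sex in the day 60 differences was not tested. For the mean responses of the measured Ly6 members and several gene lists, day 60 silica values without an array of these 3 are given below. Some other day 60 silica results, such as those of single marker genes, are given from the fit of all arrays only. A value missing there does not mean that the fit was impossible.

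The members were chosen by the silica responses of these arrays, above all the CS minus PBS difference of Ly6i. Differences between CS and PBS are therefore a description of the members, and no p is given for them. Ly6i was far higher in CS lungs than in PBS pools at both days. In BLT1-/-KRasLA1 lungs at day 60 it was at 12.36, 13.12 and 13.19 after CS, against 8.72 in the PBS pool. BLT1+/+KRasLA1 lungs had 13.27, 13.27 and 13.05 after CS, against 9.25 in the PBS pool. All 6 day 60 CS lungs thus lay above the pool of their genotype, as they did for 12.2% of all features.

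At day 2 Ly6i was at 10.96, 11.13 and 10.07 in BLT1-/- lungs with CS, against 8.20 in the PBS pool. BLT1+/+ lungs had 12.05, 11.61 and 11.48 with CS, against 8.47 in the PBS pool. Every CS lung again lay above both pools, and the CS lungs of the genotypes did not overlap. For 15.6% of all features, all 6 CS lungs lay above the pool of their genotype. Averaged over BLT1 genotypes, CS minus PBS was 4.06 ± 0.26 (SE, 3 CS lungs and 1 pool per genotype) at day 60, or 16.7-fold, and 2.89 ± 0.26 at day 2, or 7.39-fold. These ranked 2 and 12 from the top among 19939 features. Without BLT1+/+KRasLA1 CS replicate 2 the day 60 value was 4.04, without the BLT1-/-KRasLA1 pool 3.95, and without the BLT1+/+KRasLA1 pool 4.17. In bulk lung RNA, more cells of a type and more RNA per cell cannot be told apart.

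**Figure D1:**
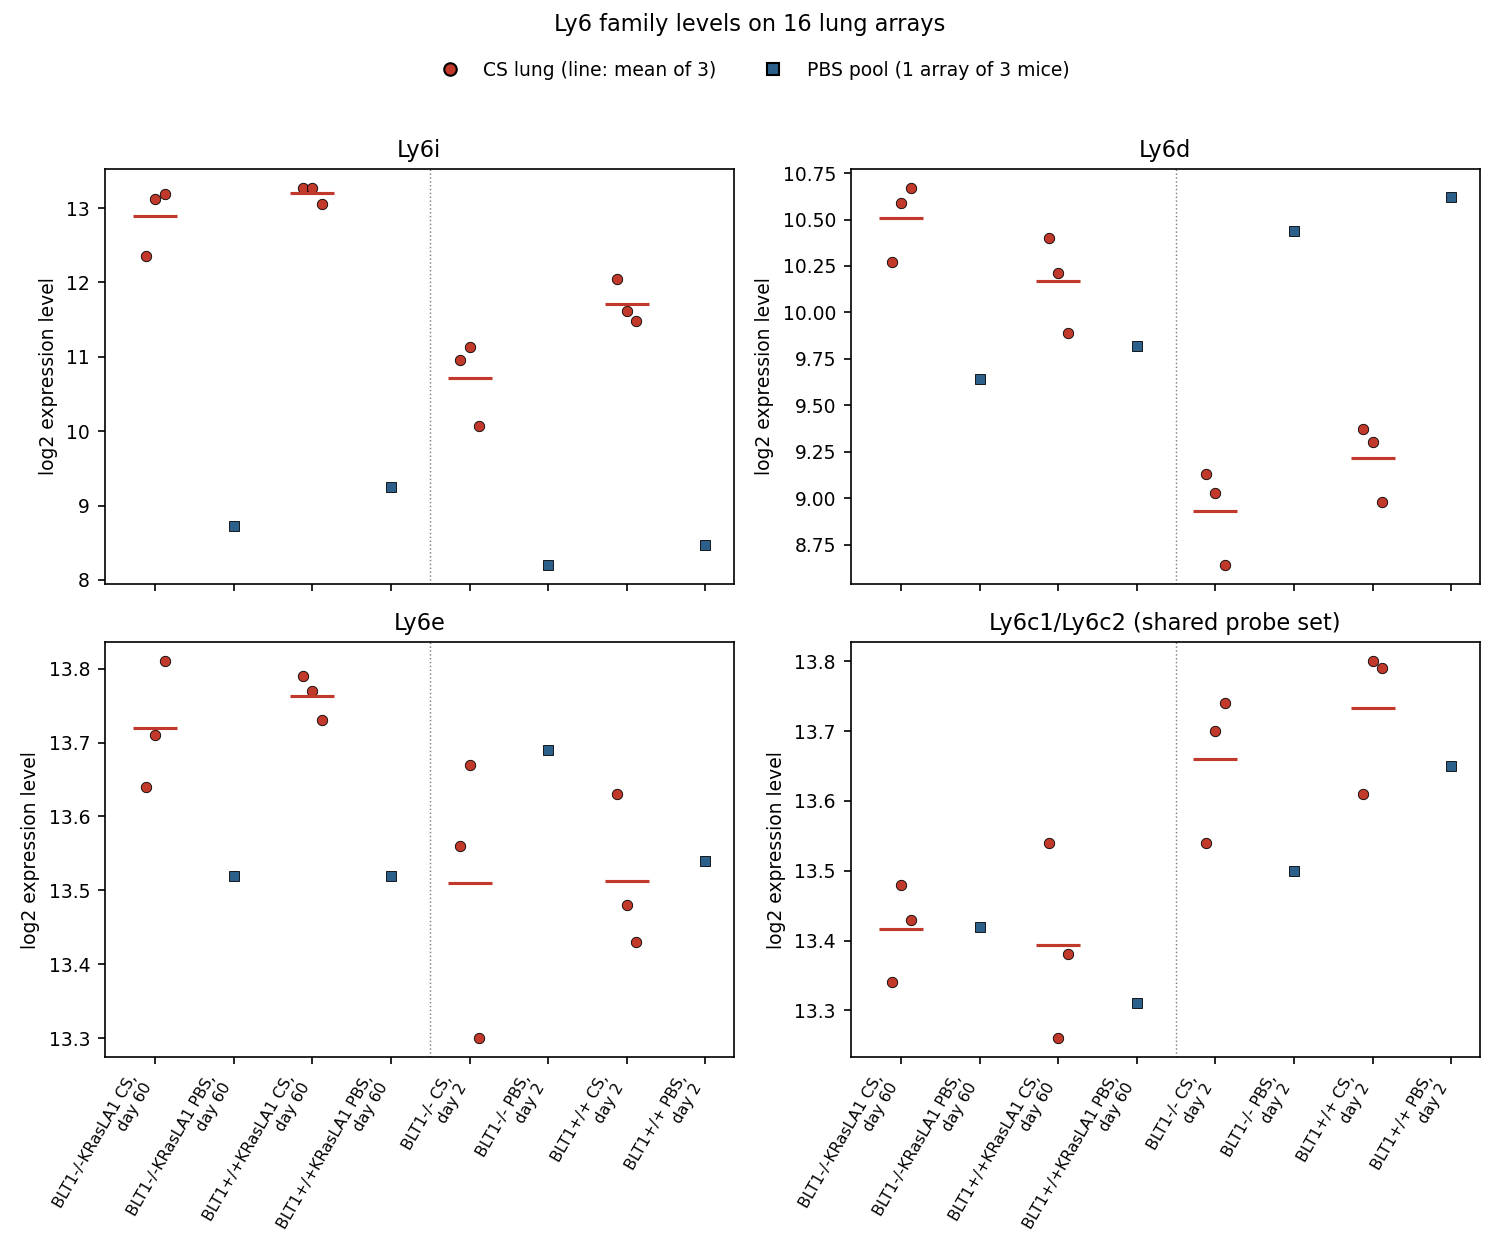
Log2 expression level (vertical axis, a separate range in each panel) of Ly6i, Ly6d, Ly6e and the probe set shared by Ly6c1 and Ly6c2 in the 8 groups (horizontal axis). Circles are CS lungs, with a line at the mean of 3, and squares are PBS pools. Ly6i spans 5.07 units and its CS lungs lie above all pools, Ly6d spans 2.03 units and lies below its pools after CS at day 2, and the other features span 0.51 and 0.54 units.

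Ly6d went opposite ways relative to PBS at the 2 days. At day 60 it was in BLT1-/-KRasLA1 lungs at 10.27, 10.59 and 10.67 with CS, against 9.64 in the PBS pool. BLT1+/+KRasLA1 lungs had 10.40, 10.21 and 9.89 with CS, against 9.82 in the PBS pool. All 6 CS lungs lay above the pool of their genotype, the lowest of them by less than the CS lungs differed among themselves.

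At day 2 Ly6d was at 9.13, 9.03 and 8.64 in BLT1-/- lungs with CS, against 10.44 in the PBS pool. BLT1+/+ lungs had 9.37, 9.30 and 8.98 with CS, against 10.62 in the PBS pool. All 6 CS lungs lay below both pools. For 15.4% of all features, all 6 lay below the pool of their genotype. CS minus PBS was 0.61 ± 0.16 at day 60 (1.53-fold) and -1.45 ± 0.16 at day 2 (2.74-fold lower), and the responses differed by 2.06 ± 0.22. The day 60 value was 0.87 ± 0.22 in BLT1-/-KRasLA1 and 0.35 ± 0.22 in BLT1+/+KRasLA1 lungs, so leaving out the pool of either genotype leaves the value of the other, and it was 0.60 without BLT1+/+KRasLA1 CS replicate 2. At day 2 it was -1.51 ± 0.22 in BLT1-/- and -1.40 ± 0.22 in BLT1+/+ lungs.

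Ly6e, a broadly expressed interferon-induced member, averaged 13.61 over the 16 arrays, the 99.8th percentile of gene levels, and spanned 0.51 units. At day 60 it was in BLT1-/-KRasLA1 lungs at 13.64, 13.71 and 13.81 with CS, against 13.52 in the PBS pool, and in BLT1+/+KRasLA1 lungs at 13.79, 13.77 and 13.73 with CS, against 13.52. The day 60 CS lungs were all above the pools. In BLT1-/- lungs at day 2 it was at 13.56, 13.67 and 13.30 with CS, against 13.69 in the PBS pool, and in BLT1+/+ lungs at 13.63, 13.48 and 13.43 with CS, against 13.54. These CS lungs spread around the pool of BLT1+/+ lungs. CS minus PBS was 0.22 ± 0.08 at day 60 and -0.10 ± 0.08 at day 2. The day 60 value was 0.22 without BLT1+/+KRasLA1 CS replicate 2, 0.24 without the BLT1-/-KRasLA1 pool and 0.20 without the BLT1+/+KRasLA1 pool.

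The probe set shared by Ly6c1 and Ly6c2 averaged 13.53 over the 16 arrays, the 99.7th percentile of gene levels. At day 60 it was in BLT1-/-KRasLA1 lungs at 13.34, 13.48 and 13.43 with CS, against 13.42 in the PBS pool, and in BLT1+/+KRasLA1 lungs at 13.54, 13.26 and 13.38 with CS, against 13.31. CS lungs lay on both sides of the pools. At day 2 it was at 13.54, 13.70 and 13.74 in BLT1-/- lungs with CS, against 13.50 in the PBS pool, and at 13.61, 13.80 and 13.79 in BLT1+/+ lungs with CS, against 13.65. CS minus PBS was 0.04 ± 0.08 at day 60 and 0.12 ± 0.08 at day 2. With BLT1+/+KRasLA1 CS replicate 2 left out the day 60 value was 0.07, with the BLT1-/-KRasLA1 pool left out 0.08, and with the BLT1+/+KRasLA1 pool left out -0.01. The second shared probe set (10429573) lay 0.07 to 0.22 lower on every array and gave 0.02 ± 0.08 and 0.10 ± 0.08. A change in 1 of these genes that the other offsets would not be seen on shared probe sets.

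**Figure D2:**
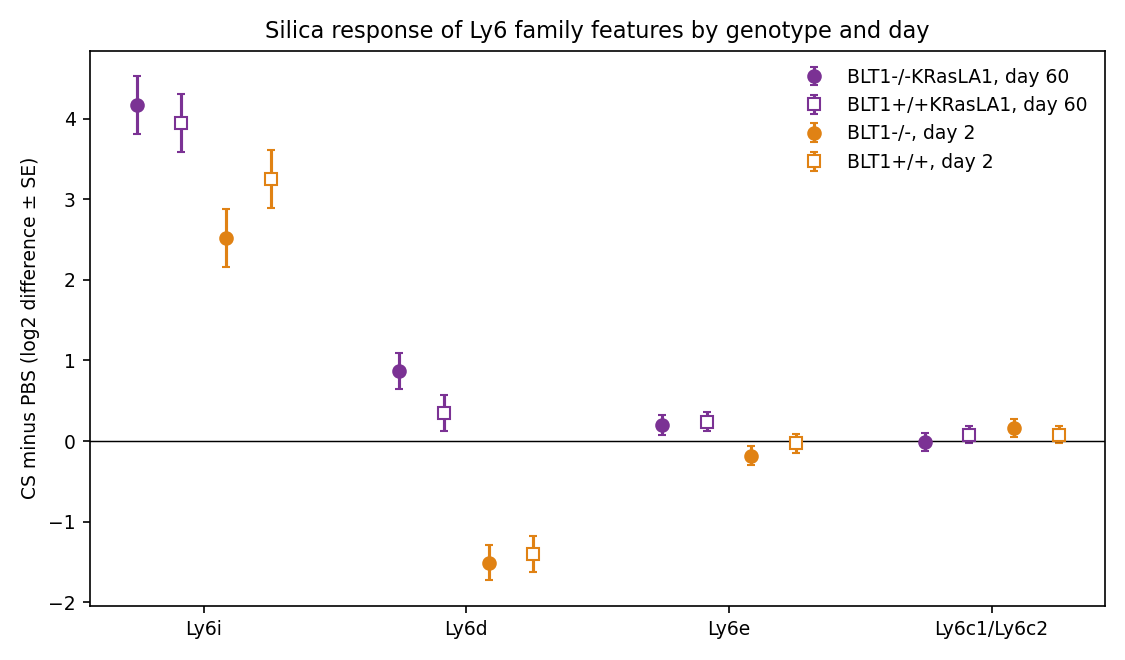
CS minus PBS in log2 units (vertical axis, points with SE) for the 4 features (horizontal axis) in each genotype and day. Ly6i lies between 2.52 and 4.17, Ly6d is above 0 at day 60 and at -1.51 and -1.40 at day 2, and Ly6e and Ly6c1/Ly6c2 stay within 0.24 of 0.

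Past an adjusted p of 0.05 in limma, 2 of the 4 features were higher with CS at day 60 (Ly6i and Ly6d), where 4.02% of all features were called in either direction. At day 2 Ly6i was called higher and Ly6d lower, with 12.4% of all features called. Within genotypes, 1 feature was called in BLT1-/-KRasLA1 lungs (1.17% of all features), 1 in BLT1+/+KRasLA1 lungs (0.762%), 2 in BLT1-/- lungs (6.6%) and 2 in BLT1+/+ lungs (1.16%). The difference of responses between the days called 1 feature, Ly6d (2.35% of all features), or 2 with the replicate number as a block. These counts follow from the choice of members. The day 60 call of Ly6d was lost when any 1 of 6 of the 12 CS lungs was left out, BLT1+/+KRasLA1 CS replicate 2 among them, and without either pool. With array weights Ly6e was called as well at day 60 (0.25), which made 3.

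The 8 groups were put in order by their own means, so the steps between neighbours are a description. In this order Ly6i separated by more than 2 standard errors at 3 steps. BLT1+/+KRasLA1 CS lungs (mean 13.20 ± 0.13, SD, n = 3) and BLT1-/-KRasLA1 CS lungs (12.89 ± 0.46) stood together at the top. BLT1+/+ CS lungs at day 2 (11.71 ± 0.30) came next, then BLT1-/- CS lungs at day 2 (10.72 ± 0.57), and among the 4 pools, from 9.25 down to 8.20, none separated from the next one down. The step from CS lungs to pools rests on the CS and PBS values that chose Ly6i. The step between the BLT1 genotypes at day 2 was not called in the test over all features (limma, adjusted p = 0.256). No neighbouring groups separated for Ly6d, Ly6e or Ly6c1/Ly6c2. Ly6d was highest in the BLT1+/+ day 2 pool and lowest in BLT1-/- CS lungs at day 2.

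Whether BLT1 altered the members after silica did not enter their choice and was tested over all features. None of the 4 features was called at day 60 (limma, 0.0401% of all features called, 810 features at an unadjusted p under 0.05, none of them a member). None was called at day 2 either (0.0201% of all features, 1735 at an unadjusted p under 0.05, of which 1 is a member, Ly6i). At day 2 Ly6i was 1.98-fold lower in BLT1-/- than in BLT1+/+ CS lungs, by -0.99 ± 0.26 (95% interval -1.54 to -0.44, adjusted p = 0.256). All 3 BLT1-/- lungs lay below all 3 BLT1+/+ lungs, as in 6.13% of all features. The adjusted p ran from 0.094 to 0.454 over 21 alternatives, 0.094 with the replicate number as a block.

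At day 60 Ly6i differed by -0.31 ± 0.26 (interval -0.86 to 0.25, adjusted p = 0.967), and the lungs overlapped. Ly6d differed at day 60 by 0.34 ± 0.16 (interval -0.00 to 0.68, adjusted p = 0.967), and by -0.29 ± 0.16 at day 2 (interval -0.63 to 0.05, adjusted p = 0.672). Its lungs overlapped at both days. For Ly6e the intervals were -0.22 to 0.14 at day 60 and -0.18 to 0.17 at day 2, and for Ly6c1/Ly6c2 they were -0.15 to 0.19 and -0.24 to 0.09. With 1 lung left out, the day 60 difference of Ly6i ran from -0.46 to -0.04, the value nearest 0 being that without BLT1-/-KRasLA1 CS replicate 1. That of Ly6d ran from 0.20, without BLT1+/+KRasLA1 CS replicate 3, to 0.46. Without BLT1+/+KRasLA1 CS replicate 2 the values were -0.27 for Ly6i and 0.36 for Ly6d. At day 2 the difference ran from -1.19 to -0.67 for Ly6i and from -0.40 to -0.14 for Ly6d, and both were nearest 0 without BLT1-/- CS replicate 3.

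**Figure D3:**
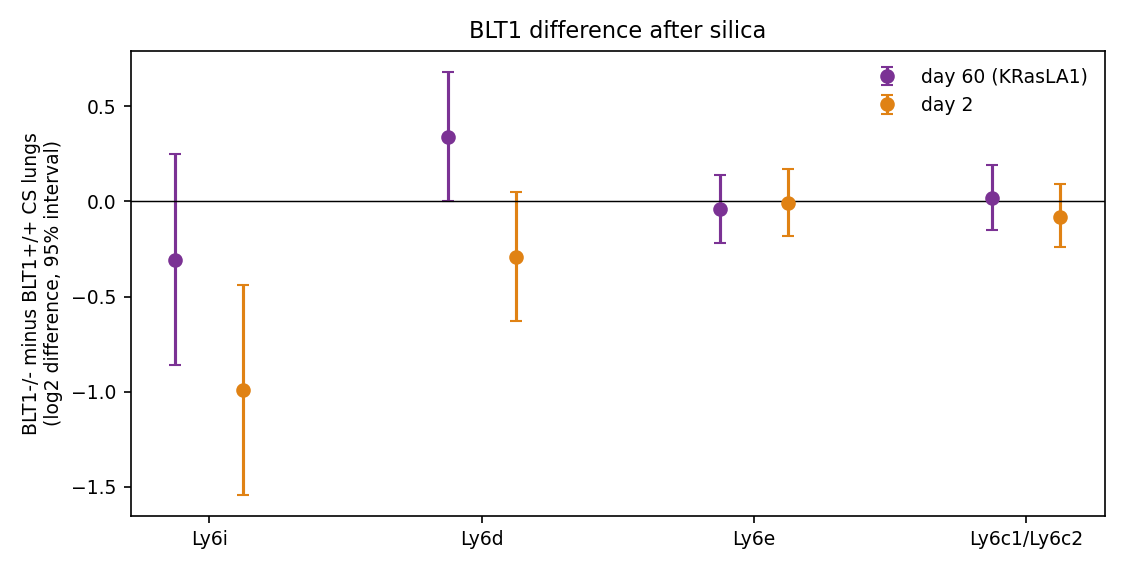
BLT1-/- minus BLT1+/+ CS lungs in log2 units (vertical axis, points with 95% intervals) for the 4 features (horizontal axis) at day 60 and day 2. The interval of Ly6i at day 2 lies below 0, from -1.54 to -0.44, and its adjusted p over all features is 0.256.

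The silica response itself, set against each genotype's own pool, did not differ by BLT1 past the threshold for any of the 4 features, nor for any feature at either day (0% called by limma, with 396 features at day 60 and 896 at day 2 at an unadjusted p under 0.05). For Ly6i the interaction was 0.23 ± 0.51 at day 60 (adjusted p = 1) and -0.72 ± 0.51 at day 2 (adjusted p = 0.82). With 1 lung left out it ran from 0.08 (without BLT1-/-KRasLA1 CS replicate 3) to 0.49 (without BLT1-/-KRasLA1 CS replicate 1) at day 60, and from -0.92 to -0.40 (without BLT1-/- CS replicate 3) at day 2. For Ly6d it was 0.52 ± 0.32 at day 60 (adjusted p = 1) and -0.10 ± 0.32 at day 2 (adjusted p = 0.944). Its intervals were -0.16 to 1.20 at day 60 and -0.78 to 0.57 at day 2, and with 1 lung left out it ran from 0.38 to 0.64 and from -0.22 to 0.04. Without BLT1+/+KRasLA1 CS replicate 2 the day 60 interaction was 0.26 for Ly6i and 0.54 for Ly6d, and without a pool it has no value.

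Between the PBS pools of the 2 days, none of the 4 features was called by limma (0.396% of all features, 2128 at an unadjusted p under 0.05, 2 of them members). Ly6d averaged 9.73 in the day 60 pools and 10.53 in the day 2 pools, a difference of -0.80 ± 0.19 (adjusted p = 0.109, or 0.0219 with array weights). Ly6i averaged 8.98 in the day 60 pools and 8.33 in the day 2 pools (0.65 ± 0.31, adjusted p = 0.492). Ly6c1/Ly6c2 averaged 13.37 and 13.58 (-0.21 ± 0.10, adjusted p = 0.452), and Ly6e 13.52 and 13.61 (-0.09 ± 0.10, adjusted p = 0.866). Within BLT1-/- pools the difference was -0.80 for Ly6d and 0.52 for Ly6i, and within BLT1+/+ pools -0.80 and 0.78. Both day 60 pools are among the 3 arrays set apart by Eif2s3y, so no value without both could be had.

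Over the 16 arrays, which share groups and pools, the genes most like Ly6i by Pearson's r were Pigr (0.984), Cfb (0.960), Slc26a4 (0.959), Chil1 (0.958) and Itih4 (0.954). Pigr encodes the receptor that carries IgA across epithelium, Cfb is complement factor B, Slc26a4 is the anion exchanger pendrin, Chil1 is a chitinase-like protein, and Itih4 is an acute phase protein. These genes were picked by likeness on the same arrays, so their differences are a description with no p. For Pigr, CS minus PBS was 1.57 ± 0.11 at day 60 and 0.85 ± 0.11 at day 2, and BLT1-/- minus BLT1+/+ CS lungs at day 2 was -0.57 ± 0.11. For Ly6d they were Cd79b (0.957), Nkg7 (0.956), Gimap3 (0.955), Fcrl1 (0.951) and Arhgap4 (0.948). Cd79b is a chain of the B cell receptor complex, Nkg7 a protein of cytotoxic granules, and Fcrl1 a B cell surface protein. For Cd79b, CS minus PBS was 0.42 ± 0.14 at day 60 and -1.12 ± 0.14 at day 2.

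For Ly6e the most alike were Tapbp (0.949), Csk (0.933), Pld4 (0.920), Sdc3 (0.920) and Coro7 (0.919). Tapbp encodes tapasin, which loads peptides onto MHC class I. For Ly6c1/Ly6c2 they were Slc10a6 (0.919), Nup98 (0.915), Cers6 (0.911), Eif2s3x (0.910) and Hipk3 (0.909). The spread of this feature over the arrays was small (SD 0.17), as was that of Ly6e (0.14), so these likenesses rest on small differences.

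The B cell list moved with Ly6d. The mean log2 level of its 11 measured genes in BLT1-/-KRasLA1 lungs was 9.74 to 10.18 with CS, against 9.22 in the PBS pool, and in BLT1+/+KRasLA1 lungs 9.64 to 9.81, against 9.33. In BLT1-/- lungs at day 2 it was 8.43 to 8.84 with CS, against 9.63 in the PBS pool, and in BLT1+/+ lungs 8.52 to 9.14, against 9.79. At day 60, 3 of the 11 rose and 0 fell with CS (median 0.54). At day 2, 0 rose and 10 fell (median -1.05). Ms4a1, which encodes CD20 and was picked by its likeness to Ly6d, was at 0.75 ± 0.21 at day 60 and -1.55 ± 0.21 at day 2. The T cell list of 10 genes had 6 rising at day 60 (median 0.54) and 7 falling at day 2 (median -0.43). The median over all features was -0.03 at day 60 and -0.02 at day 2, and 4.02% and 12.4% of all features were called. The 12 squamous epithelium genes, the other class that Ly6d marks, had 0 called at day 60 and 1 rising at day 2. Without BLT1+/+KRasLA1 CS replicate 2 the day 60 count of the B cell list was 2 and that of the T cell list 5. It was 0 for both without the BLT1-/-KRasLA1 pool, and 3 and 1 without the BLT1+/+KRasLA1 pool. The median stayed between 0.39 and 0.76 for the B cell list and between 0.48 and 0.64 for the T cell list. The fits without a pool used the other 7 day 60 arrays and called 58 and 171 features in all, against 802 in the fit of 16 arrays. The part of these cell classes in the Ly6d result was not tested.

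Interferon response genes moved with Ly6i in part. Over 24 genes, the mean log2 level in BLT1-/-KRasLA1 lungs was 9.97 to 10.68 with CS, against 9.58 in the PBS pool, and in BLT1+/+KRasLA1 lungs 10.54 to 10.67, against 9.76. In BLT1-/- lungs at day 2 it was 9.55 to 10.34 with CS, against 9.66 in the PBS pool, and in BLT1+/+ lungs 10.23 to 10.40, against 9.63. At day 60, 14 of the 24 rose and 0 fell with CS (median 0.66), where 4.02% of all features were called. At day 2, 3 rose and 0 fell (median 0.34), a share near the 12.4% called over all features. Without BLT1+/+KRasLA1 CS replicate 2 the day 60 count was 8, and without either pool 0, with medians of 0.67, 0.64 and 0.77. Those closest to Ly6i over the arrays were the antiviral genes Mx1 (r = 0.887) and Oas1a (r = 0.872), which were picked for this and have no p here. For Mx1, CS minus PBS was 1.27 ± 0.29 at day 60 and 0.94 ± 0.29 at day 2, and for Oas1a it was 0.94 ± 0.16 and 0.23 ± 0.16. Iigp1, an interferon-induced GTPase, had the same r as Oas1a at 3 decimals. Ifngr1 of this list went the other way (r = -0.522). Ly6e was closer than Ly6i to some genes of this list, such as Tap1 (r = 0.891 against 0.756). It was less close to others, such as Mx1 (r = 0.528 against 0.887). Cd177 of the neutrophil list was closer to Ly6i than any of the 24 (r = 0.924), while others of that list ran down to -0.484 (Camp). The part of interferon-responding cells in the Ly6i result was not tested. Between BLT1-/- and BLT1+/+ CS lungs at day 2 the list's median was -0.35, with 0 of 24 called by limma, and the median over all features was 0.01. The lowest BLT1-/- CS lung at day 2 for Ly6i, at 10.07, was also the lowest CS lung for this list, at 9.55.

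**Figure D4:**
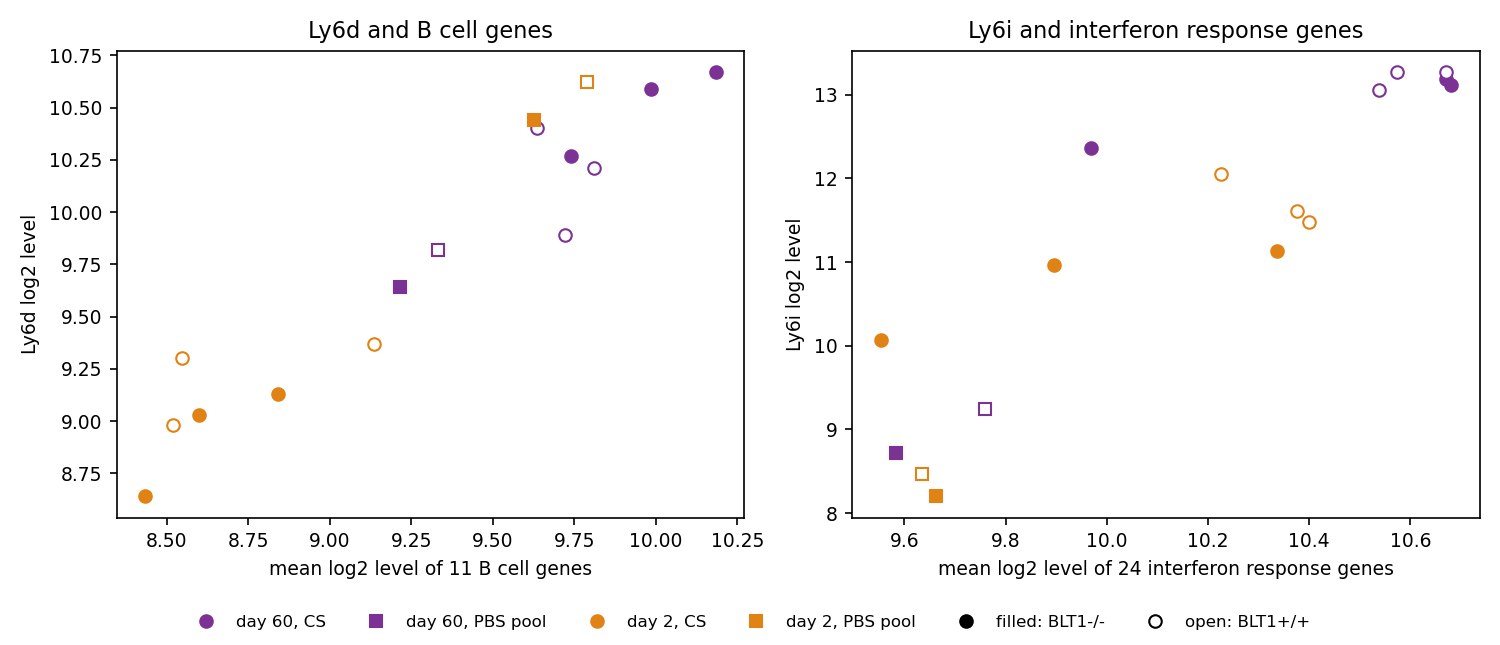
Left, Ly6d log2 level (vertical axis) against the mean log2 level of 11 B cell genes (horizontal axis) on 16 arrays. Right, Ly6i log2 level against the mean log2 level of 24 interferon response genes. Circles are CS lungs and squares PBS pools, filled for BLT1-/- and open for BLT1+/+. The day 2 CS lungs lie lowest for Ly6d and its list, and the 4 pools lie lowest for Ly6i, at 8.20 to 9.25.

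Monocyte genes are given beside Ly6c1/Ly6c2, whose antigen marks these cells. Those most like it were F13a1 (r = 0.884), a coagulation factor subunit of monocytes, and Itgam (r = 0.514), an integrin chain of myeloid cells. Others of the list went the other way, namely Cx3cr1 (r = -0.667), Chil3 (-0.648), Csf1r (-0.435) and Fcgr4 (-0.139). The rest lay between 0.168 (Ccr2) and 0.490 (Cd14), so the list as a whole did not track this feature. At day 60 CS minus PBS was 0.10 ± 0.14 for F13a1 and 1.37 ± 0.24 for Itgam. At day 60, 7 of 11 rose and 0 fell with CS (median 0.84), and at day 2, 2 rose and 1 fell (median 0.17). The day 60 count was 6 without BLT1+/+KRasLA1 CS replicate 2 and 0 without either pool, with medians of 0.81, 0.79 and 0.83. Their mean level was 10.31 to 10.72 in BLT1-/-KRasLA1 CS lungs, against 9.74 in the PBS pool, and 10.32 to 10.79 in BLT1+/+KRasLA1 CS lungs, against 9.95. Of the T cell list, another class in which the antigen is found, 6 of 10 genes rose at day 60 and 7 fell at day 2, as given above. Of 13 capillary endothelium genes, a further such class, 0 were called at day 60 (median -0.23) and 3 fell at day 2 (median -0.34). Their mean level was 11.60 to 12.15 over the day 60 CS lungs, against 12.13 and 12.16 in the pools. The part of these classes in the Ly6c1/Ly6c2 level was not tested. Genes of the neutrophil list followed Ly6c1/Ly6c2 more closely over the arrays, with r from 0.453 (Mmp9) to 0.906 (Mmp8), except Cd177 (-0.122). This likeness rests on the small spread of the feature, and the part of neutrophils in its level was not tested. Of 12 neutrophil genes, 4 rose at day 60 and 2 at day 2, and of 8 plasma cell genes 5 and 2 rose, with 0 falling in either. Beside the counts of all these lists, 4.02% of all features were called at day 60 and 12.4% at day 2. Without BLT1+/+KRasLA1 CS replicate 2, 5 neutrophil and 5 plasma cell genes rose at day 60, and without either pool 1 and 2.

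Of 36 other measured genes of the Ly6/uPAR family, which share the three-finger fold, 1 rose and 1 fell with CS at day 60 (median -0.11). At day 2, 2 rose and 3 fell (median -0.13). Over all features, 4.02% were called at day 60 and 12.4% at day 2, and the family counts lie near these shares. Plaur, the urokinase receptor that directs plasmin to the cell surface, rose by 0.57 ± 0.14 (adjusted p = 0.0318) at day 60, and at day 2 by 0.83 ± 0.14 (adjusted p = 0.00191). Without either pool, or without BLT1+/+KRasLA1 CS replicate 2, the day 60 call of Plaur was lost (0.55 to 0.57). Lypd2 fell at day 60, at -0.69 ± 0.13 (adjusted p = 0.00938), and at day 2, at -0.65 ± 0.13 (adjusted p = 0.00673). Its day 60 value was -1.01 without the BLT1-/-KRasLA1 pool and -0.37, not called, without the BLT1+/+KRasLA1 pool. At day 2 Psca, prostate stem cell antigen, rose by 0.94 ± 0.19 (adjusted p = 0.00607).

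Gpihbp1, which carries lipoprotein lipase across capillary endothelium, fell at day 2, at -0.43 ± 0.09 (adjusted p = 0.00683), and so did Ly6g6c, at -0.51 ± 0.15 (adjusted p = 0.0361). The counts rested on single pools. At day 60 the count was 1 without the BLT1-/-KRasLA1 pool, 0 without the BLT1+/+KRasLA1 pool, 1 without BLT1+/+KRasLA1 CS replicate 2 and 4 with the replicate block. At day 2 it was 0 with the BLT1-/- pool left out, or 2 with the BLT1+/+ pool left out. None of the 36 was called between BLT1 genotypes after CS at either day (limma, 0.0401% of all features at day 60 and 0.0201% at day 2). Ly6a2, a family gene distinct from Ly6a and singled out after its values were seen, was at 0.68 at day 60 and -0.73 at day 2, not called at either day.

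**Figure D5:**
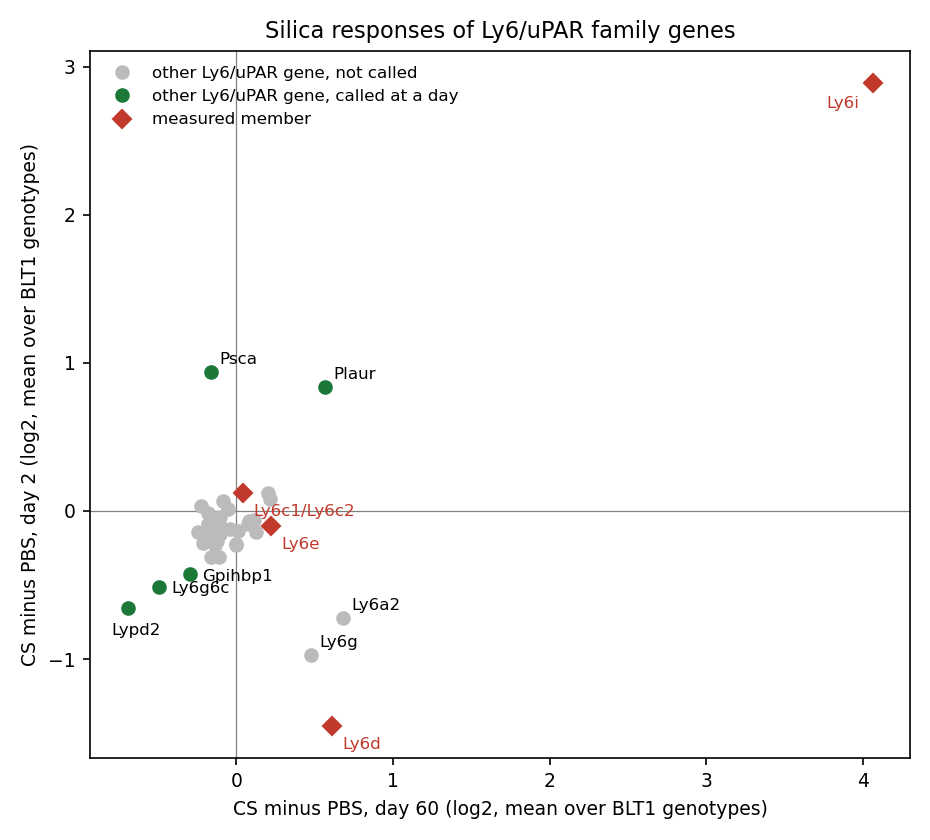
CS minus PBS at day 60 (horizontal axis) against day 2 (vertical axis), in log2 units averaged over BLT1 genotypes. Diamonds are the measured members and circles 36 other Ly6/uPAR genes, dark where called at a day. Ly6i lies alone at 4.06 and 2.89, and Ly6d at 0.61 and -1.45 lies near Ly6a2 and Ly6g.

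Between the PBS pools, where 0.396% of all features were called, 1 of the 36 fell. This was Ly6g, the classical neutrophil surface marker, which was singled out after its values were seen. It averaged 7.15 in the day 60 pools and 10.47 in the day 2 pools, a difference of -3.32 ± 0.46 (adjusted p = 0.0148), or -4.03 within BLT1-/- and -2.61 within BLT1+/+ pools. Neutrophil genes moved with it: 6 of 12 fell and 0 rose between the pools (median -1.72). Their part in the Ly6g result was not tested.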

How the data were processed

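Total lung RNA of 16 samples was measured on 1 array each. The deposited values are log2 expression levels per probe set, which the authors made with RMA and Partek 6.6 per the submitters' processing notes, without settings. As commonly run, this method brings the arrays close to 1 distribution, and their medians lay between 8.25 and 8.34. A change in total RNA would then not be seen. Of 35556 probe sets in the platform annotation, 21789 carried 1 symbol, 1621 several and 12146 none. The brightest probe set per gene was kept, and probe sets with several symbols were left out except the shared Ly6c1/Ly6c2 ones. No array was a copy of another (closest pair SD 0.22), and 0 columns of values were unused.

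A limma model (3.58.1, R 4.3.3) of the 8 group means was fitted to the 16 arrays (eBayes with a trend, two-sided, Benjamini-Hochberg over 19939 features, threshold 0.05), with 8 residual and 5.4 prior degrees of freedom. Pools have no replicate and took the CS lungs' spread. Every gene's p-value is from this fit. In data simulated for the day 60 mean response, 72.73% of 66 changes of 0.5 and all of 67 changes of 1 were recovered. The simulated noise was independent between arrays and had the CS lungs' spread in the pools too. The share recovered on the real arrays is therefore not known.

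Members and lists were chosen with earlier results of these data known, so the lists are no independent support. Named are the members, the 5 genes most like each by Pearson's r, and up to 6 other family genes called in a mean response. Also named are up to 2 genes of a marker list by likeness to a member, other list genes given beside these, and Ltb4r1. The 4 family symbols without a match were not used. Same-numbered CS lungs of the BLT1 genotypes deviated together at day 2 (r = 0.43, 0.20 and 0.34) and not at day 60 (0.09, 0.01 and 0.06). The labels do not state a pairing. The fit has no block. Alternatives were array weights, no trend, quantile and cyclic loess normalization, dim genes left out, mean over or all of a gene's probe sets, each day alone, the block, each lung or pool left out, and, chosen after seeing the data, the marker lists without the 3 arrays set apart by Eif2s3y. Precision is limited by the number of arrays.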

Additional observations from a re-analysis of the deposited data

Results flagged for a closer look

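Some silica responses pointed opposite ways in every lung of the groups compared, and for members the difference is a description with no p, since their silica responses chose them. Ly6d was above its pools in all 6 CS lungs at day 60 (0.61) and below them in all 6 at day 2 (-1.45), a difference of 2.06. Within a genotype the difference was not tested by itself, and was 2.38 in BLT1-/- lungs (0.87 and -1.51) and 1.75 in BLT1+/+ lungs (0.35 and -1.40). Ly6e did the same in BLT1-/- lungs alone, at 0.20 and -0.18, a difference of 0.38 that was not tested either. Its margin was small, since the nearest day 2 CS lung was at 13.67 against 13.69 in the single pool.

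Psca differed between days by a test of the difference, by -1.09 (-0.16 at day 60 and 0.94 at day 2, adjusted p = 0.0493 in limma). It was named for its day 2 call, whose value enters this difference, so the p is no independent support. Its levels of 6.67 to 8.13 lay below the lowest array median of 8.25. The day 2 call held under 19 of 21 alternatives. In BLT1-/- lungs every lung lay below its pool at day 60 and above it at day 2, a difference of -1.25 (-0.33 and 0.92) that was not tested by itself. The nearest day 60 CS lung was at 7.17 against 7.21 in its pool.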

How the results depend on the processing

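No result changed direction past its threshold. Ly6i kept its silica call under all 23 alternatives at day 60 (3.95 to 4.20) and at day 2 (2.52 to 3.25), and Ly6d at day 2 (-1.51 to -1.38). The members were chosen by these same differences, so their silica calls are a description and no independent support. At day 60 Ly6d was called under 13 of 23 (0.35 to 0.87), and Ly6e under 1 of 23 (array weights, 0.25). The members' day 60 count was thus 2 as reported, 3 with array weights, 1 with no mean-variance trend, with every probe set, or without either pool, and 1 to 2 with a CS lung left out. In BLT1-/-KRasLA1 lungs the count was 2 with array weights and 1 to 2 with a CS lung left out (2 without BLT1-/-KRasLA1 CS replicate 1), and in BLT1+/+ lungs at day 2 it was 1 with every probe set, both against the reported 1 and 2. Between the PBS pools it was 1 with array weights. With the replicate block the response difference between days called 2 members, as it did with array weights, the second being Ly6i (1.18 with the block). Of the other family genes at day 60, 4 were called with the block or array weights, 1 without the BLT1-/-KRasLA1 pool, 0 without the BLT1+/+KRasLA1 pool and 1 to 3 with a CS lung left out. At day 2, 0 were called with the BLT1-/- pool left out, 2 with the BLT1+/+ pool left out, and 4 to 7 with a CS lung left out. The block changed no other count by over 1.5 times. With a pool left out, the mean response is that of the other genotype alone. The fit of every probe set was not run for the family list. The marker lists were refitted without the 3 arrays set apart by Eif2s3y, an alternative chosen after seeing the data. The causes were not tested. Pools without replicates and shared probe sets for Ly6c1/Ly6c2 limit what these arrays can show.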
